A study of Sus scrofa with 10 samples.

Results

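Troponin and tropomyosin are the regulatory proteins of the thin filament, the actin strand on which myosin pulls. In striated muscle tropomyosin lies along actin and covers the sites where myosin binds, and the troponin complex moves it away when calcium arrives. The complex has a subunit that binds calcium (troponin C), a subunit that inhibits contraction (troponin I) and a subunit that anchors the complex to tropomyosin (troponin T). Troponin T, troponin I and tropomyosin come in isoforms from separate genes. The adult heart has a troponin T and a troponin I of its own, whereas slow skeletal fibres use others and share troponin C with the heart.

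The genes described were the 10 whose symbol is TNNT1, TNNT2, TNNT3, TNNI1, TNNI3, TNNC1, TPM1, TPM2, TPM3 or TPM4, of which 8 were found in a table of 12378 genes with a symbol and 3260 without. TNNT3, the fast skeletal troponin T, and TPM3, a tropomyosin of slow skeletal muscle and of non-muscle cells, had no row under their symbols and are not analysed here. Right ventricular biopsies came from 5 pigs with CTEPH (chronic thromboembolic pulmonary hypertension, where blocked lung arteries raise the pressure against which the right ventricle pumps) and from 5 Sham pigs, with 1 RNA library for each pig. The CTEPH libraries are s1, s3, s4, s5 and s9, and the Sham libraries are s2, s6, s7, s8 and s10. The sources used here give neither the way CTEPH was induced and its duration nor the strain, sex and age of the pigs.

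Each value is a log2 value that the authors normalized so that all libraries hold nearly the same distribution, with medians of 9.305 to 9.308. The 83 highest values are the same numbers in every library, so a very abundant gene carries the value of its rank, and its value moves only when it overtakes or falls behind another gene. Relative depth, read from low values that gave back whole counts, ran from 0.724 to 1.57 in CTEPH libraries and from 0.748 to 1.51 in Sham libraries. The cardiac troponin genes TNNT2, TNNI3 and TNNC1 stood at rank 20 or better in all libraries, which matches the labelled tissue. Values are not corrected for transcript length, so ranks and ratios between genes describe reads per gene and not molecules.

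Of the 8 genes, 1 rose in CTEPH ventricles and 0 fell. This was TNNT1, the troponin T of slow skeletal fibres, which was 8.27-fold higher. The 3 cardiac troponin genes TNNT2, TNNI3 and TNNC1 differed by at most 0.34 on the log2 scale in either direction, and none of them passed the test. TPM1, the main tropomyosin gene of the heart, lay higher in every CTEPH library than in any Sham library, but its difference of 0.50 did not pass. Of all genes, 2.83% rose and 1.79% fell at an adjusted p under 0.05 (limma, Benjamini-Hochberg over all genes, written BH below), 723 genes in all. Unadjusted p-values under 0.05 belonged to 3 of the 8 genes, TNNT1, TPM1 and TPM4, and 20.3% of all genes. The groups did not overlap, with CTEPH above Sham, for 2 of the 8 genes and 3.70% of all genes, and with CTEPH below Sham for 0 of the 8 and 2.87% of all. The total of 723 called genes became 401, 475, 475, 425, 462 and 417 without CTEPH library s4, CTEPH library s5 or Sham library s2, s6, s7 or s10. It was 961 without CTEPH library s1 and also without CTEPH library s9. The median difference, CTEPH minus Sham, was 0.39 among the 8 genes and -0.03 over all genes. In bulk tissue, fewer cells of a type and less RNA per cell cannot be told apart.

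**Figure D1:**
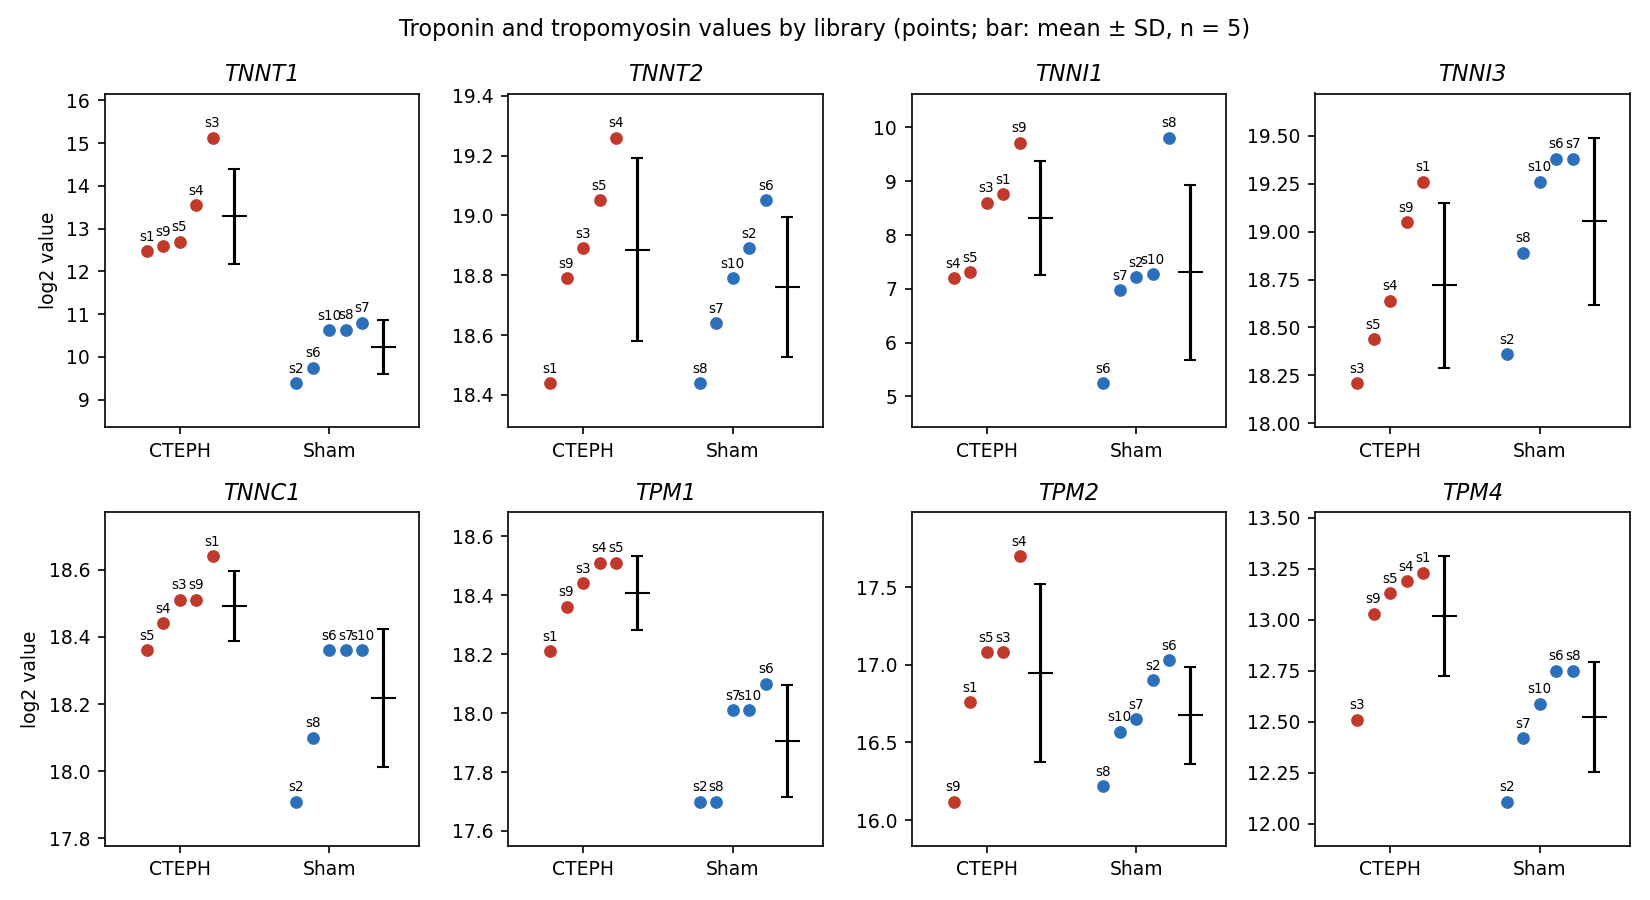
Log2 value of each measured troponin and tropomyosin gene in every library, CTEPH left and Sham right, with each group's mean ± SD (n = 5) as a bar; the vertical scales differ between panels. The CTEPH points of TNNT1, from 12.47 to 15.13, and of TPM1, from 18.21 to 18.51, lie above all Sham points, while the groups overlap in the other panels.

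TNNT1 lies on chromosome 6 from 59351445 to 59365584 (Sscrofa11.1, RefSeq). Its log2 value was 12.47, 15.13, 13.55, 12.70 and 12.59 in CTEPH libraries s1, s3, s4, s5 and s9, against 9.39, 9.75, 10.80, 10.64 and 10.62 in Sham libraries s2, s6, s7, s8 and s10. All 5 CTEPH libraries were above the highest Sham library, and s3 stood well above the other CTEPH libraries. The CTEPH mean of 13.29 ± 1.11 and the Sham mean of 10.24 ± 0.63 (SD, n = 5 each) gave a log2 difference of 3.05 ± 0.46 (SE; 95% interval 2.06 to 4.03; limma with BH, adjusted p = 0.00222). Of all genes in the table, 72 including TNNT1 had a difference at least as large in this direction. TNNT1 took ranks 136 to 1184 among the genes of the CTEPH libraries and ranks 3968 to 7608 among those of the Sham libraries. It kept its call in each of the 10 refits that left out 1 library, with differences of 2.59 to 3.25 and adjusted p-values of 5.87e-04 to 0.00871 (limma, Benjamini-Hochberg).

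TNNT2 encodes the cardiac troponin T. Its log2 value was 18.44, 18.89, 19.26, 19.05 and 18.79 in CTEPH libraries s1, s3, s4, s5 and s9, against 18.89, 19.05, 18.64, 18.44 and 18.79 in Sham libraries s2, s6, s7, s8 and s10. The groups overlapped almost wholly, and the gene held ranks 9 to 15 in CTEPH and 10 to 15 in Sham. The difference of 0.12 ± 0.20 had a 95% interval from -0.32 to 0.57 (limma with BH, adjusted p = 0.782), a fold of 0.803 to 1.48. This interval bounds values set by rank, so a change that left the order of the genes the same would not appear in it. Reads were counted per gene, so the fetal and adult splice forms of TNNT2 cannot be told apart.

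The log2 ratio of TNNT1 to TNNT2 put the slow skeletal gene beside the cardiac one in the same library. It was -5.97, -3.76, -5.71, -6.34 and -6.20 in CTEPH libraries s1, s3, s4, s5 and s9, against -9.49, -9.30, -7.84, -7.81 and -8.17 in Sham libraries s2, s6, s7, s8 and s10. The groups did not overlap, and the means of -5.60 ± 1.05 over CTEPH libraries and -8.52 ± 0.81 over Sham libraries (SD, n = 5 each) lay 2.92 apart. On the linear scale TNNT1 made up 6.86% of the summed TNNT1 and TNNT2 value in CTEPH library s3 and 1.22% to 1.87% in the other CTEPH libraries, against 0.138% to 0.445% in the Sham libraries. TNNT2 therefore stayed the main troponin T transcript by reads in all 10 libraries. No test was made on these ratios, since TNNT1 was known from earlier results to rise.

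**Figure D2:**
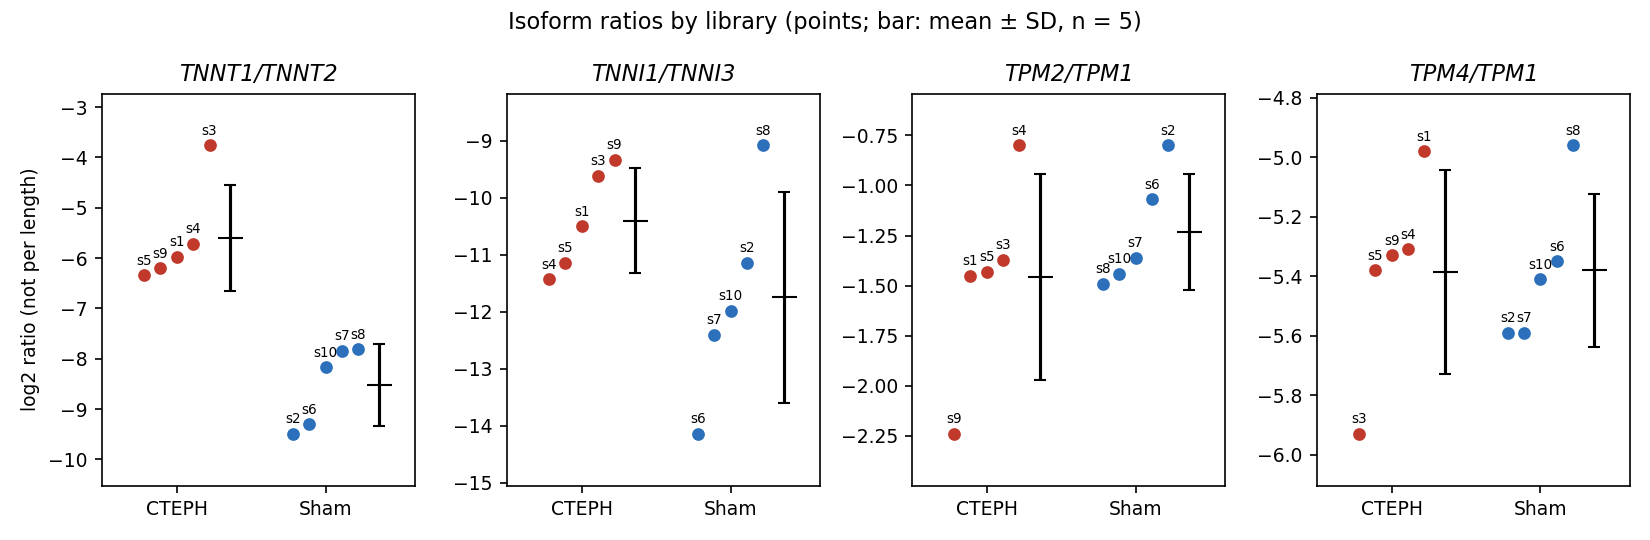
Log2 ratio of the slow skeletal, fetal or non-muscle isoform to the main cardiac isoform in every library, CTEPH left and Sham right, with each group's mean ± SD (n = 5). The TNNT1 to TNNT2 ratio is from -6.34 to -3.76 in CTEPH and from -9.49 to -7.81 in Sham, while the other 3 ratios overlap between groups.

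Troponin I showed no comparable separation. TNNI1 encodes the slow skeletal troponin I, which the mammalian fetal heart also uses before TNNI3 takes its place. The TNNI1 log2 value was 8.76, 8.60, 7.20, 7.31 and 9.72 in CTEPH libraries s1, s3, s4, s5 and s9, against 7.22, 5.25, 6.98, 9.81 and 7.27 in Sham libraries s2, s6, s7, s8 and s10. The highest of all 10 values was in Sham library s8 and the lowest in Sham library s6, so the Sham range enclosed the CTEPH range. Low values gave back whole counts of 214, 178, 124 and 87 in CTEPH libraries s1, s3, s4 and s5, against 84, 29, 45 and 63 in Sham libraries s2, s6, s7 and s10. They are not scaled for depth, and CTEPH library s9 and Sham library s8, which held the highest values, lay above the range in which counts can be read. The difference was 1.01 ± 0.70 (SE; 95% interval -0.49 to 2.51; limma with BH, adjusted p = 0.456). It was 1.64 without Sham library s8 and 0.50 without Sham library s6, and none of the 10 such refits made a call.

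TNNI3 encodes the cardiac troponin I, whose amino-terminal extension is a target of protein kinase A. It was the only measured gene of the 8 with a negative difference. Its log2 value was 19.26, 18.21, 18.64, 18.44 and 19.05 in CTEPH libraries s1, s3, s4, s5 and s9, against 18.36, 19.38, 19.38, 18.89 and 19.26 in Sham libraries s2, s6, s7, s8 and s10. CTEPH libraries s3, s4 and s5 and Sham library s2 were low, so the groups overlapped. The difference of -0.34 ± 0.27 did not pass (95% interval -0.91 to 0.24; limma with BH, adjusted p = 0.523). The log2 ratio of TNNI1 to TNNI3 averaged -10.40 ± 0.92 over CTEPH libraries and -11.75 ± 1.85 over Sham libraries (SD, n = 5 each). Its range was -11.43 to -9.33 in CTEPH and -14.14 to -9.08 in Sham, again with the CTEPH values inside the Sham range.

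TNNC1 encodes the troponin C shared by cardiac and slow skeletal muscle. Its log2 value was 18.64, 18.51, 18.44, 18.36 and 18.51 in CTEPH libraries s1, s3, s4, s5 and s9, against 17.91, 18.36, 18.36, 18.10 and 18.36 in Sham libraries s2, s6, s7, s8 and s10. CTEPH library s5 tied with 3 Sham libraries at rank 16, and the other 4 CTEPH libraries were above them. The difference of 0.27 ± 0.17 did not pass (95% interval -0.09 to 0.63; limma with BH, adjusted p = 0.389). TNNC2, the fast skeletal troponin C, was close to the bottom of the table, with whole counts of 8 to 33 in CTEPH libraries and 3 to 15 in Sham libraries, and differed by 1.0 ± 0.54 (limma with BH, adjusted p = 0.328).

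**Figure D3:**
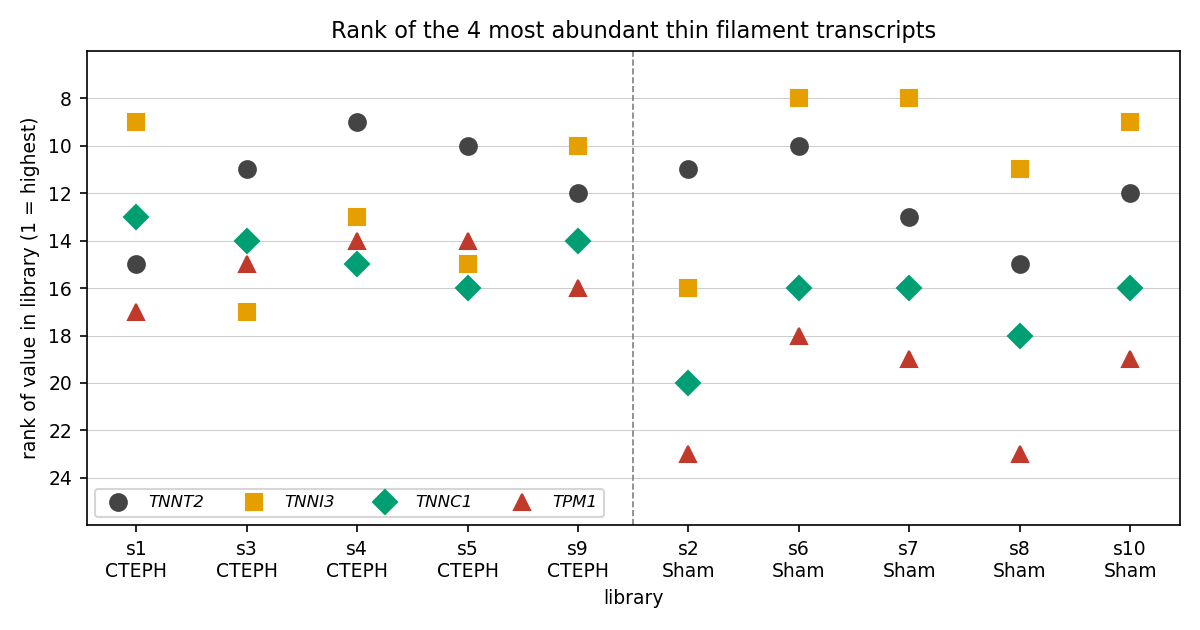
Rank of the TNNT2, TNNI3, TNNC1 and TPM1 values among all genes of each library, with rank 1 at the top, CTEPH libraries left of the dashed line and Sham libraries right of it. TPM1 is at ranks 14 to 17 in CTEPH and at ranks 18 to 23 in Sham; TNNT2 covers nearly the same ranks in both groups.

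Tropomyosin is a coiled-coil dimer, and TPM1 encodes the alpha chain that predominates in the adult heart. Reads were counted per gene in bulk tissue, so splice forms of TPM1, and the cells they came from, cannot be told apart. The TPM1 log2 value was 18.21, 18.44, 18.51, 18.51 and 18.36 in CTEPH libraries s1, s3, s4, s5 and s9, against 17.70, 18.10, 18.01, 17.70 and 18.01 in Sham libraries s2, s6, s7, s8 and s10. The groups did not overlap. The difference of 0.50 ± 0.16 (SE; 95% interval 0.15 to 0.85) had an unadjusted p = 0.00877 and did not pass after adjustment (limma with BH, adjusted p = 0.102). Between ranks 11 and 20 neighbouring values lay 0.0952 apart at the median, so this difference was that of a few places in the ranking. Without CTEPH libraries s1 and s9, a choice made after the data were seen, the difference was 0.58 and passed (limma with BH, adjusted p = 0.036).

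TPM2 encodes the beta chain, a main tropomyosin of slow skeletal and smooth muscle. Its log2 value was 16.76, 17.08, 17.70, 17.08 and 16.12 in CTEPH libraries s1, s3, s4, s5 and s9, against 16.90, 17.03, 16.65, 16.22 and 16.57 in Sham libraries s2, s6, s7, s8 and s10. The CTEPH libraries held both the highest value, in s4, and the lowest, in s9. The difference of 0.28 ± 0.26 did not pass (95% interval -0.28 to 0.84; limma with BH, adjusted p = 0.602), and the log2 ratio of TPM2 to TPM1 averaged -1.46 ± 0.51 over CTEPH libraries and -1.23 ± 0.29 over Sham libraries (SD, n = 5 each). Smooth muscle markers varied over the same libraries. The level of that list, in which each of its 12 genes is centred on its own mean over all libraries and the genes are averaged, was -0.41, 0.60, 0.53, 0.52 and -0.52 in CTEPH libraries s1, s3, s4, s5 and s9, against -0.10, 0.05, 0.11, -0.37 and -0.39 in Sham libraries s2, s6, s7, s8 and s10. Both TPM2 and the list were at their lowest of all libraries in s9, and the part of smooth muscle in the TPM2 values was not tested.

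TPM4 encodes a tropomyosin of the cytoskeleton of non-muscle cells. Its log2 value was 13.23, 12.51, 13.19, 13.13 and 13.03 in CTEPH libraries s1, s3, s4, s5 and s9, against 12.11, 12.75, 12.42, 12.75 and 12.59 in Sham libraries s2, s6, s7, s8 and s10. Of the CTEPH libraries, s3 fell within the Sham range and the other 4 lay above it. The difference of 0.50 ± 0.17 had an unadjusted p = 0.012 and did not pass (95% interval 0.13 to 0.86; limma with BH, adjusted p = 0.119). It was 0.62 without CTEPH library s3, which is the refit of 10 that made a call (limma with BH, adjusted p = 0.0478). The log2 ratio of TPM4 to TPM1 averaged -5.39 ± 0.35 over CTEPH libraries and -5.38 ± 0.26 over Sham libraries (SD, n = 5 each). Tropomyosin genes resemble each other in sequence, and the sources used here do not give how reads that match several genes were treated, so the split between TPM genes is uncertain.

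**Figure D4:**
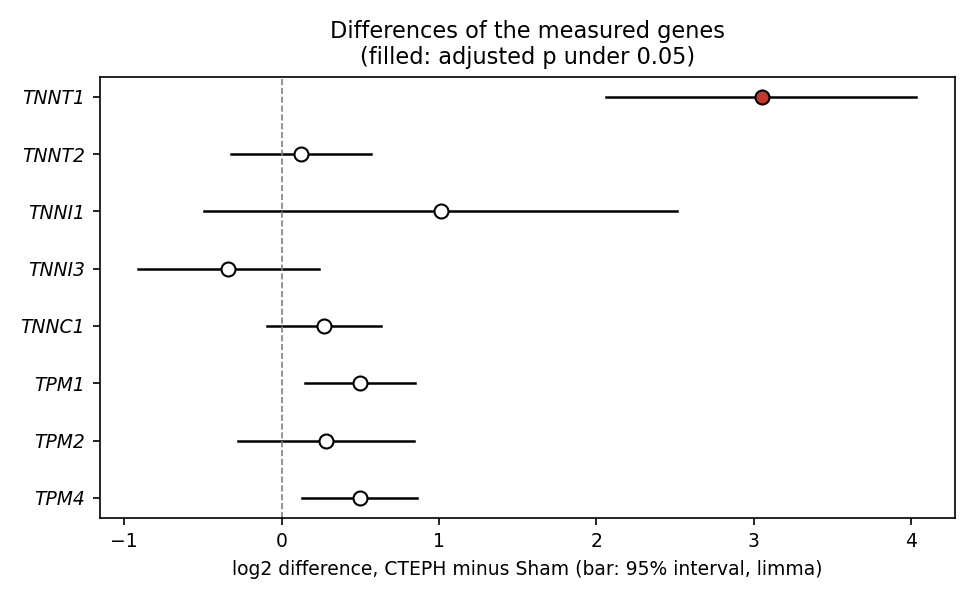
Log2 difference, CTEPH minus Sham, of the 8 measured genes with its 95% interval from limma; a filled point marks an adjusted p under 0.05. The interval of TNNT1 runs from 2.06 to 4.03, and the intervals of TPM1 and TPM4 also leave out 0 before adjustment, while the other 5 include it.

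Troponin genes lie in pairs on mammalian chromosomes, each pair holding a troponin I and a troponin T gene. On chromosome 6 the gap from TNNT1 to TNNI3 was 1243 bases, with no protein-coding gene between them in the RefSeq table of Sscrofa11.1. TNNT2 and TNNI1 lie 28582 bases apart on chromosome 10, with LAD1 between them, and TNNI2 and TNNT3 lie 43942 bases apart on chromosome 2. The slow skeletal TNNT1 therefore sits next to the cardiac TNNI3, and the cardiac TNNT2 near the slow skeletal TNNI1. TNNT1 rose by 3.05 while TNNI3 was at -0.34 ± 0.27. The 3 nearest measured genes on either side, RDH13, EPS8L1, PPP1R12C, PPP6R1, HSPBP1 and BRSK1, differed by -0.30 to 0.17, and none of them passed (limma with BH, adjusted p = 0.415 to 0.918). PPP1R12C, 4267 bases from TNNT1, averaged 11.56 ± 0.48 over CTEPH libraries and 11.43 ± 0.22 over Sham libraries (SD, n = 5 each). The sign of the difference of PPP1R12C, PPP6R1 and BRSK1 changed in some refits.

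**Figure D5:**
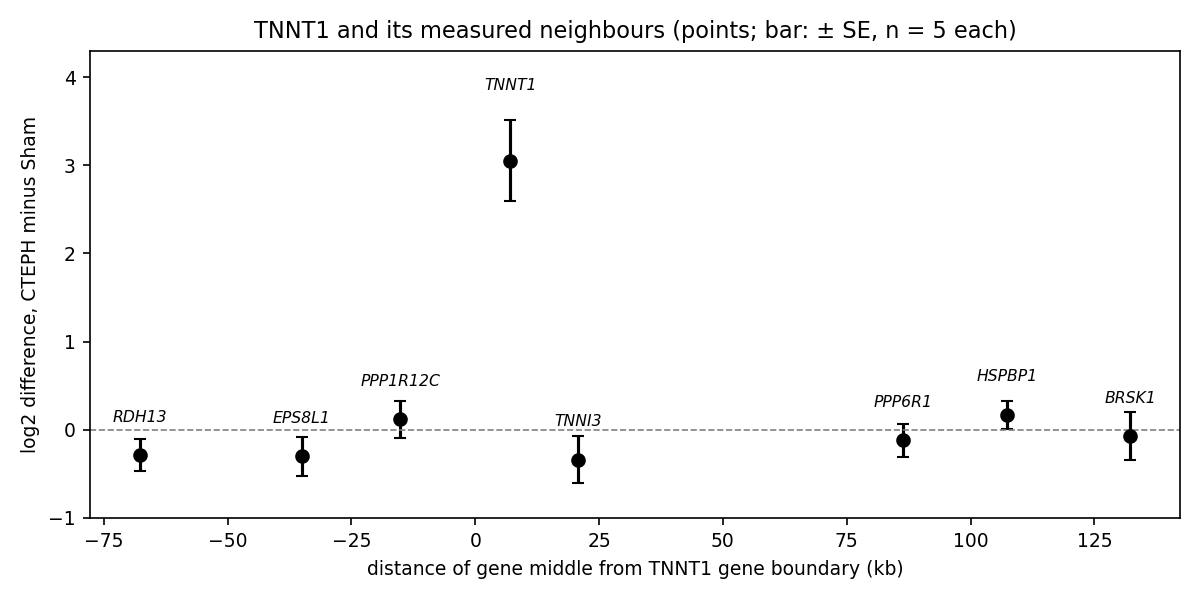
Log2 difference, CTEPH minus Sham, ± SE (limma, n = 5 each) of TNNT1, TNNI3 and the 3 nearest measured genes on either side, against the distance of each gene's middle from the lower boundary of TNNT1. TNNT1 is at 3.05 and all others are between -0.34 and 0.17.

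Other genes of the thin filament were taken from a list of its actins, capping proteins and assembly factors. Of 21 measured genes, 4 rose and 1 fell (limma, Benjamini-Hochberg over all genes), 23.8% against 4.62% of all genes in either direction, and the median difference was 0.36 against -0.03 over all genes. XIRP2, an actin-binding repeat protein, rose by 2.17 ± 0.46. NEB, which encodes the thin filament ruler nebulin of skeletal muscle, rose by 1.84 ± 0.44, to 11.99 ± 1.11 in CTEPH against 10.15 ± 0.49 in Sham (SD, n = 5 each). The formin gene DAAM1 rose by 0.67 ± 0.17 and the muscle cofilin gene CFL2, which severs actin, by 0.61 ± 0.16. TMOD2, a tropomodulin that caps the pointed end of actin, fell by 0.91 ± 0.23, to 7.96 in CTEPH against 8.87 in Sham. TMOD1, TMOD3 and TMOD4, picked after their values were seen, were at 0.13 ± 0.27, -0.36 ± 0.23 and 0.56 ± 0.34. None of these other tropomodulin genes passed (limma with BH, adjusted p = 0.646, 0.401 and 0.392). TMOD1 had the highest values of the family, with means of 11.8 in CTEPH and 11.67 in Sham. Cardiac actin ACTC1 was at -0.14 ± 0.25 and skeletal actin ACTA1 at 1.19 ± 0.38, and neither passed (limma with BH, adjusted p = 0.811 and 0.0936); both are named although they were picked after their values were seen. ACTA1 passed with library quality weights and without CTEPH library s9 or both s1 and s9. XIRP2 kept its call in all 10 refits without 1 library, whereas NEB lost it without s4, s5, s2, s8 or s10. TMOD2 kept its call only without s5 or s9, and DAAM1 and CFL2 only without s1 or s9. The count of called genes was 1 without CTEPH library s4 or Sham library s2, s8 or s10, and 2 without CTEPH library s3 or s5 or Sham library s6 or s7. Without the intensity trend in the variance it was also 1, and with libraries centred on cardiomyocyte markers it was 2.

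Markers of skeletal muscle were taken from another list, which does not hold NEB. Of 20 listed genes 9 were measured, of which 0 were called by limma, against 4.62% of all genes, and 5 had unadjusted p-values under 0.05, against 20.3% of all genes. Their level ran from -0.26 to 0.70 in CTEPH libraries and from -0.52 to 0.53 in Sham libraries. The fast myosin heavy chain genes MYH1 and MYH4 were near the bottom of the table, at 3.78 to 5.81 and 2.91 to 5.37 in CTEPH and at 3.35 to 4.64 and 2.09 to 4.34 in Sham. Other markers of the list stood higher. MYL1, a light chain gene of fast skeletal muscle, was at 8.71 to 13.61 in CTEPH and 6.52 to 10.48 in Sham. The myosin heavy chain gene MYH3 was at 7.79 to 8.87 in CTEPH and 8.33 to 9.44 in Sham. MYL1 and MYH3 were picked after their values were seen. The genes with the smallest p on this list, the calcium store protein gene CASQ1 and the fast myosin-binding protein gene MYBPC2, were at 1.37 ± 0.42 and -1.37 ± 0.45 (limma with BH, adjusted p = 0.0839 and 0.105). CASQ1 passed with library quality weights and without CTEPH library s1, s9 or both, and MYBPC2 without CTEPH library s5. No measured marker of this list was at a count of 0 in any library.

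Genes of the atrial and fetal heart gave 2 rises among 13 measured, 15.4% against 2.83% of all genes, with a median difference of 0.16. Unadjusted p-values under 0.05 (limma), in both directions, belonged to 10 of the 13, against 20.3% of all genes. The difference was positive for 8 of the 13. NPPB, the gene of B-type natriuretic peptide, rose by 6.57 ± 0.85, and its values were 10.26, 14.01, 14.92, 14.55 and 11.61 in CTEPH libraries s1, s3, s4, s5 and s9, against 5.77, 4.54, 7.65, 7.41 and 7.09 in Sham libraries s2, s6, s7, s8 and s10. NPPB was lowest among CTEPH libraries in s1 and s9, where TNNT1 was also lowest, but TNNT1 peaked in s3 and NPPB in s4. KCNA5, a potassium channel gene known from the atrium, rose by 0.77 ± 0.20 and, among the refits without 1 library, kept its call only without s5 or s8. The count of called genes was 1 without CTEPH library s3 or s4 or Sham library s6, s7 or s10, 5 without CTEPH library s9, and 4 with library quality weights or without s1 and s9.

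Among 13 measured cardiomyocyte markers 2 rose, 15.4% against 2.83% of all genes. MYL2, the ventricular regulatory light chain, rose by 0.99 ± 0.21 and CSRP3, a muscle LIM protein, by 0.95 ± 0.21. The difference was positive for 6 of the 13. MYBPC3, MYOM2 and TCAP, picked after their values were seen, were at -0.54 ± 0.23, -0.52 ± 0.20 and -0.50 ± 0.21. None of them passed (limma with BH, adjusted p = 0.214, 0.166 and 0.198). The level of the list overlapped between groups, at -0.20 to 0.21 in CTEPH and -0.24 to 0.13 in Sham, and its median difference was -0.04. MYL2 lost its call without CTEPH library s4, and CSRP3 without CTEPH library s4 or s5 or Sham library s2, s6 or s10. When every library was instead centred on the median of these markers, the median difference over all genes was 0.15 in place of -0.03. TNNT1 was then at 3.23, and the other 7 genes kept the sign of their difference.

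Regulators of these genes, or of the proteins they encode, were taken from 3 further lists. Of 13 measured splicing factors that act on troponin T or tropomyosin transcripts, RBFOX1 fell by 0.60 ± 0.15 and 0 rose, 7.69% called against 4.62% of all genes. The call was lost without the intensity trend and with libraries centred on cardiomyocyte markers, and among the refits without 1 library the call was kept only without s1 or s9. Of 24 measured transcription factors, limma called 0 while 5 had unadjusted p-values under 0.05, against 20.3% of all genes; the smallest p belonged to GATA6, at 0.71 ± 0.20, and TEAD4, which binds the MCAT elements of muscle promoters, at 0.60 ± 0.20 (limma with BH, adjusted p = 0.0566 and 0.103). GATA6 passed without CTEPH library s9 or Sham library s7, and TEAD4 without both s1 and s9. Of 27 measured kinase and phosphatase genes, the regulatory subunit gene of protein kinase A PRKAR1A rose by 0.84 ± 0.16 and 0 fell, 3.70% called against 4.62% of all genes. PRKAR1A kept its call in all 10 refits without 1 library. PAK1, which encodes a p21-activated kinase, was at 0.91 ± 0.28 (limma with BH, adjusted p = 0.0878), and it passed with library quality weights and without CTEPH library s1 or both s1 and s9. The count of called genes on this list was 2 with library quality weights, without s1 or without s9, and 3 without both.

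Cell division genes and markers of other cell types moved in part with the groups. All 10 measured cell division genes rose, against 2.83% of all genes, with levels of 0.80 to 2.14 in CTEPH libraries and -1.74 to -1.42 in Sham libraries, and UBE2C rose most, by 4.66 ± 0.39. Of these 10, AURKB kept its call, among the refits without 1 library, only without s1. With the lowest genes left out, 5 of the 10 were called, since 4 were no longer tested and AURKB did not pass. The endothelial genes FLT1 and TEK fell by 0.94 ± 0.22 and 0.78 ± 0.17, 2 of 9 measured against 1.79% of all genes, with levels of -0.54 to 0.00 in CTEPH and -0.09 to 0.59 in Sham. The difference was positive for 0 of these 9 genes, with a median of -0.36 against -0.03 over all genes. Unadjusted p-values under 0.05 (limma) belonged to 4 of the 9, against 20.3% of all genes. The smooth muscle gene CNN1 rose by 1.98 ± 0.47, the only called gene of 12, and the leukocyte gene LYZ by 2.38 ± 0.55, the only called gene of 10, beside 2.83% of all genes that rose. Of 11 fibroblast genes limma called 0, while 4 had unadjusted p-values under 0.05, against 20.3% of all genes. The smallest p belonged to VIM, at 0.55 ± 0.16, and POSTN, at 0.70 ± 0.20 (limma with BH, adjusted p = 0.0692 and 0.0708). The difference was positive for 7 of the 11 fibroblast genes. The fibroblast count was 1 without CTEPH library s1 or s9, and 2 without both or with library quality weights. The endothelial count was 0 with libraries centred on cardiomyocyte markers, and 1 without the intensity trend or without s1 and s9. The smooth muscle count was 0 without the intensity trend or with robust moderation of the variance, and 2 with library quality weights, without s9, or without both s1 and s9. FLT1 lost its call without s3, s4, s6, s7 or s8, and TEK without s3, s4, s6, s8 or s10. LYZ lost it without s3, s4, s5, s2 or s7, and CNN1 without s3, s5, s2, s6, s8 or s10. TPM4, which endothelial, smooth muscle and fibroblast cells also express, was above the Sham range in 4 CTEPH libraries, and the part of these cells in its values was not tested.

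Among the 12378 genes with a symbol, 5 besides TNNT1 were picked for the profile most like that of TNNT1 over the 10 libraries, each gene centred on its Sham mean. They were TREM2, FGF16, MYH15, XIRP2 and CDCA8, with root mean square differences from TNNT1 of 0.70, 0.71, 0.75, 0.85 and 0.85 on the log2 scale. The pick used all 10 libraries, s3 included, so a peak shared with TNNT1 in s3 follows from the pick and is no separate result. It also favours genes with a CTEPH rise near that of TNNT1, so the calls of these genes are no separate result either. In TREM2, FGF16, MYH15 and XIRP2 the highest CTEPH value was in s3, as in TNNT1, at 6.70, 8.20, 7.34 and 13.50. In CDCA8 it was in s4, at 7.76. The Sham values of TREM2, FGF16 and MYH15 were low, at 2.01 to 4.15, 2.01 to 5.30 and 2.91 to 5.21. Of the 10 refits without 1 library, TREM2 lost its call in 7, MYH15 in 5 and FGF16 in 3, while XIRP2 and CDCA8 kept theirs.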

How the data were processed

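RNA was extracted from right ventricular biopsies of 5 CTEPH and 5 Sham pigs, per the labels' protocols, and each pig gave 1 library. The labels give the molecule as polyA RNA but name a stranded kit for total RNA. Per the submitters' processing notes, genes of build Sscrofa11.1 were counted with featureCounts after bcl2fastq 2.18.12, cutadapt 1.15 and FastQC 0.11.5, and edgeR 3.36.0 and limma 3.50.0 were also used. The sources used here give no aligner, annotation, strand setting or filter. The values the authors deposited are on a log2 scale and nearly quantile-normalized, so a change shared by most genes cannot appear in them. Values below a limit found for each library, 9.48 in the lowest case, gave back whole counts within 1e-06. These made up 52.8% of the table. Relative depth was the median count ratio over 5703 genes with at least 5 counts in every library. Total depth is unknown.

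Symbols matched 12378 of 15638 Ensembl identifiers. Coordinates are those of the RefSeq table of Sscrofa11.1, counted from 1. Groups were compared over all genes with limma 3.58.1 in R 4.3.3 (intensity trend, no covariate, two-sided, Benjamini-Hochberg), and an adjusted p under 0.05 is a call. Alternatives were other variance models, library weights, a filter on low genes, 16 added before the logarithm, centring on cardiomyocyte markers, and leaving out each library. The genes, 12 lists and isoform ratios were chosen with earlier results of these data known. Chosen by rule were all 10 genes, up to 6 called genes from each list or otherwise those of smallest p, the neighbours of TNNT1 and the 5 profiles most like it. Not all genes chosen from the lists are printed above. Nothing says whether libraries of different pigs shared a batch.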

Additional observations from a re-analysis of the deposited data

Results flagged for a closer look

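In groups of 5 libraries, a value was singled out where its gap to the nearest other library exceeded 0.71 of the group's range, which chance gives in about 1 of 20 groups; 106 groups were examined and 8 values were singled out. Among the troponin and tropomyosin genes, CTEPH library s3 stood apart in both cases. Its log2 ratio of TNNT1 to TNNT2 was -3.76, against -6.34 to -5.71 in the other CTEPH libraries, and its TPM4 value was 12.51, against 13.03 to 13.23. The same library was highest among the CTEPH libraries for FGF16, at 8.20 against 6.21 to 6.72, and for LYZ, at 9.24 against 7.12 to 7.69. FGF16 had been picked for its likeness to TNNT1, s3 included, so its value in s3 is not separate from that of TNNT1. AIF1 was lowest in CTEPH library s5, at 8.43 against 9.15 to 9.36. PPP6R1 was lowest in CTEPH library s9, at 10.29 against 11.11 to 11.36. MYBPC2 was lowest in Sham library s2, at 7.04 against 7.56 to 7.65. MYH15 was highest in Sham library s10, at 5.21 against 2.91 to 3.35.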

How the results depend on the processing

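TNNT1 was called under all 17 alternatives, with differences of 2.59 to 3.55. The other 7 measured genes kept their sign under all 17, and the 4 isoform ratios moved by less than the spread between libraries under the 12 run for them. Over the refits without 1 library TPM4 ran from 0.39 to 0.62 and was called without CTEPH library s3, at 0.62, and TPM1 without CTEPH libraries s1 and s9, at 0.58. The count of called genes over the whole table was 723, and it was 1269 with library weights, 440 when centred on cardiomyocyte markers, 1491 without CTEPH libraries s1 and s9, and 401 to 961 when each library was left out in turn. The cause was not tested. Of 685 refits of the 41 other genes chosen by rule, 110 lost a call, 18 gained one and 6 changed sign. The sign changed for PPP1R12C without CTEPH library s1, at -0.04, in a range of -0.04 to 0.24 over the refits without 1 library, which was -0.20 to 0.07 for PPP6R1 and -0.18 to 0.11 for BRSK1. It changed for PPP6R1 when centred on cardiomyocyte markers, at 0.06, without CTEPH library s9, at 0.07, and without s1 and s9, at 0.10. It changed for BRSK1 when centred on these markers and without Sham library s8, at 0.11 in both. Leaving out s1 and s9 was chosen after the data were seen, because they had the lowest library weights, 0.476 and 0.508. No paired analysis was possible because each library number occurs once. Values of the most abundant genes are limited by the steps between ranks, and those of TNNC2 by counts as low as 3.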

Other observations

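The order of the cardiac troponins within a library differed between pigs. The log2 ratio of TNNI3 to TNNT2, picked after the values were seen, was 0.82, -0.68, -0.62, -0.60 and 0.26 in CTEPH libraries s1, s3, s4, s5 and s9, against -0.53, 0.34, 0.75, 0.45 and 0.47 in Sham libraries s2, s6, s7, s8 and s10. TNNI3 thus had more reads than TNNT2 in CTEPH libraries s1 and s9 and in all Sham libraries except s2. The list of thin filament partners had its lowest CTEPH levels in the same libraries, at -0.11 in s1 and -0.03 in s9, against -0.50 to -0.13 in the Sham libraries. TNNT1 was also lowest among CTEPH libraries there, at 12.47 in s1 and 12.59 in s9, close to the 12.70 of s5 and above the Sham maximum of 10.80. No test was made on these orders.

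The skeletal muscle and atrial light chain genes had wide ranges. MYL1, an alkali light chain of fast skeletal muscle, ran from 8.71 to 13.61 in CTEPH and from 6.52 to 10.48 in Sham. Its difference was 2.56 ± 0.88, which missed the threshold (limma with Benjamini-Hochberg, adjusted p = 0.121). MYL4, the atrial light chain, was at 1.73 ± 0.77 and SLN, which encodes the calcium pump inhibitor sarcolipin, at 2.09 ± 0.56, and neither passed (limma with BH, adjusted p = 0.225 and 0.052). On the atrial and fetal list 8 of the 13 measured genes had a positive difference, and others went the other way. NR2F1 was at -0.99 ± 0.27, MYH7B at -0.88 ± 0.24 and TBX5 at -0.53 ± 0.16, and none of them passed (limma with BH, adjusted p = 0.0587, 0.0588 and 0.0807). All genes named in this paragraph were picked after their values were seen.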
